A study of Mus musculus with 43 samples.

Results

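The non-clustered delta protocadherins are 9 of the 53379 genes counted in nuclear RNA of sorted cortical neurons, and they were taken by symbol. Pcdh1, Pcdh7, Pcdh9 and Pcdh11x form the delta-1 subfamily, and Pcdh8, Pcdh10, Pcdh17, Pcdh18 and Pcdh19 form delta-2. Their Ensembl identifiers, in that order, are ENSMUSG00000051375, ENSMUSG00000029108, ENSMUSG00000055421 and ENSMUSG00000034755, then ENSMUSG00000036422, ENSMUSG00000049100, ENSMUSG00000035566, ENSMUSG00000037892 and ENSMUSG00000051323. Open-chromatin regions were assigned to a gene when their midpoint lay inside its span or when they overlapped the 1 kb on either side of its start. That gave 211 of 165184 regions in females and 321 of 192919 in males. The family was chosen by the values of housing in male RNA, where Pcdh11x had passed the test, so those values are a description of the 9 genes and carry no test.

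All animals were wildtype Swiss Webster mice, weaned at postnatal day 25 and aged 2 months at collection. After weaning they lived in environmental enrichment (EE), with more space, a running wheel and changing toys, or in standard housing (SH). Frontal cortex nuclei were fixed and sorted for NeuN, a neuronal nuclear protein, so a library mixes all NeuN-positive neuron types of that dissection. RNA was measured in 6 EE and 6 SH libraries of each sex, and open chromatin by ATAC-seq, in which a transposase inserts adapters into accessible DNA, in 3 EE and 3 SH female and 6 EE and 7 SH male libraries. The labels do not say whether replicates are separate animals or pools, so p-values measure the spread between these libraries, which may be technical. Each sex has its own tables and run names, and an effect of sex cannot be told apart from one of the run.

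Delta protocadherins are single-pass membrane proteins of the cadherin superfamily that bind like molecules on neighbouring cells and act in axon growth, neuronal sorting and synapse formation. Delta-1 proteins have more extracellular cadherin repeats and a cytoplasmic motif that binds protein phosphatase 1, whereas several delta-2 tails recruit the actin-regulating WAVE complex. In cortex the genes are known for patterns that differ between layers and areas.

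In units of 1e+06 counts, RNA libraries held 10.6 to 15.4 (female) and 10.4 to 14.6 (male), and ATAC libraries 19.1 to 26.3 (female) and 27.7 to 73.8 (male). The neuronal markers Rbfox3, Snap25, Syt1 and Map2 summed to 7142 to 7900 CPM (counts scaled to 1e+06 per library) in female and 6522 to 7613 CPM in male libraries. Markers of astrocytes, oligodendrocytes, their precursors, microglia and vessels together summed to 812 to 1696 CPM and 819 to 1082 CPM. The highest of those sums was in female SH replicate 2, against 812 to 1176 CPM in the other female libraries. Much of each sum came from 1 gene of the astrocyte list, Slc1a2. Its means were 696 (EE) and 804 (SH) CPM in females and 730 (EE) and 666 (SH) CPM in males. Of the marker genes, 0 were at 0 in every library of a table.

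The 9 genes differed widely in level, both in CPM and once length was taken into account. Counts cover introns and exons, so levels between genes are given as CPM per kb of gene span. Pcdh9, which spans 877 kb of chromosome 14 (mm10 chr14:93013410-93890679, minus strand), had the most RNA, with 4720 CPM or 5.38 ± 0.379 CPM per kb in females (SD, n = 12 libraries) and 3957 CPM or 4.51 ± 0.370 CPM per kb in males. Pcdh1, on chromosome 18 with a span of 26.1 kb (chr18:38185914-38212053, minus strand), had only 88.4 CPM in females but 3.38 ± 0.229 CPM per kb, and 3.45 ± 0.309 CPM per kb in males. Next came Pcdh7, a 415 kb gene (chr5:57717967-58133230, plus strand), at 2.80 ± 0.117 and 2.72 ± 0.263 CPM per kb in females and males, and Pcdh10 (chr3:45378398-45435623, plus strand), linked to autism in people and to synapse elimination, at 2.14 ± 0.200 and 2.63 ± 0.207 CPM per kb.

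The other genes were below 1 CPM per kb. Pcdh17 (chr14:84443563-84539002, plus strand), a regulator of presynaptic assembly, had 0.689 ± 0.0918 CPM per kb in females and 0.985 ± 0.0950 in males. Pcdh8 (chr14:79766775-79771312, minus strand), also called arcadlin, is induced by neuronal activity and spans only 4.54 kb. Its level was 0.550 ± 0.158 CPM per kb in females and 0.871 ± 0.115 in males, from 18 to 49 and 32 to 72 counts per library. The X-linked gene Pcdh19 (chrX:133582860-133688987, minus strand), whose human counterpart is mutated in a female-limited epilepsy, had 0.259 ± 0.0213 and 0.350 ± 0.0260 CPM per kb. The X-linked Pcdh11x (chrX:120290259-120910619, plus strand) spans 620 kb, so that its 149 CPM in females and 143 CPM in males came to 0.240 ± 0.0168 and 0.231 ± 0.0316 CPM per kb. Pcdh18 (chr3:49743296-49757325, minus strand) was lowest at 0.0621 ± 0.0283 and 0.0473 ± 0.0221 CPM per kb, with 4 to 25 counts in a female and 3 to 15 in a male library.

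Both tables gave the same order of CPM per kb of gene span: Pcdh9, Pcdh1, Pcdh7, Pcdh10, Pcdh17, Pcdh8, Pcdh19, Pcdh11x, Pcdh18. This order depends on dividing by span. Each neighbouring pair in the order from 1 table was tested in the 12 libraries of the other with an exact two-sided sign-flip permutation test, whose smallest possible p is 0.000488, and p was adjusted over the 16 tests. In 15 of 16 tests the higher gene stayed higher past the threshold of 0.05. The exception was Pcdh7 over Pcdh10 in males, where 6 of 12 libraries had the expected order (mean log2 difference 0.04 ± 0.16, SD, exact permutation p = 0.378). The weakest pairs that held were Pcdh19 over Pcdh11x in females (0.11 ± 0.15, 10 of 12 libraries) and Pcdh17 over Pcdh8 in males (0.18 ± 0.27, 9 of 12 libraries), both with an adjusted exact permutation p of 0.0432. When each of the 24 libraries was left out in turn, the first was lost in 8 cases and the other in 9.

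**Figure D1:**
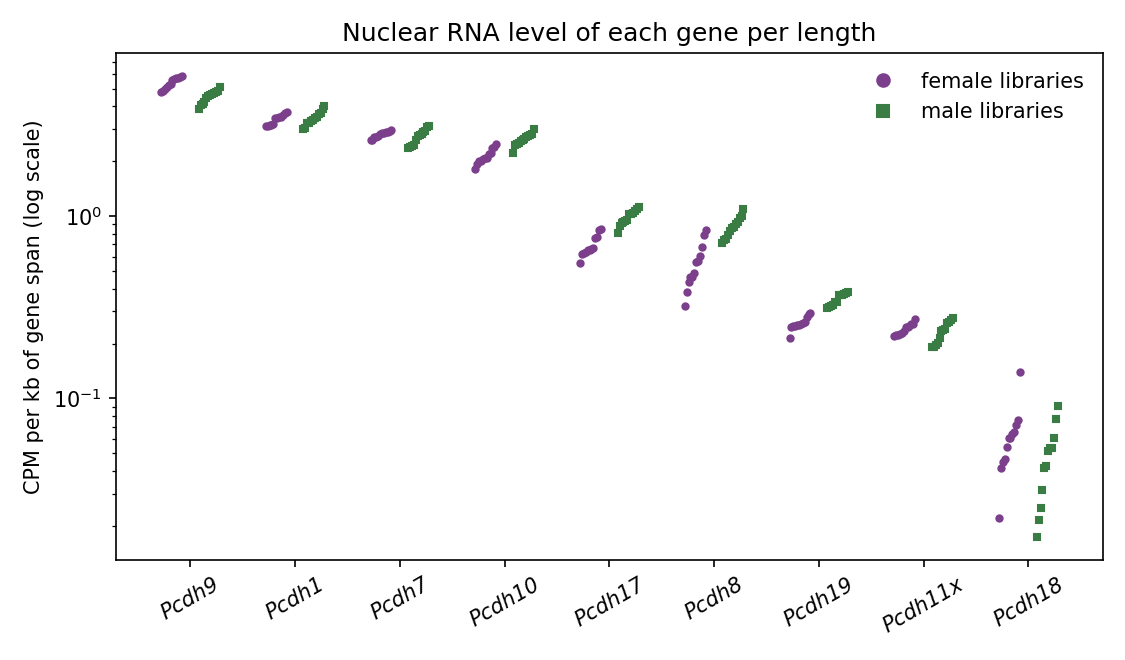
Level of each gene in CPM per kb of gene span, on a log axis, with 1 point per RNA library (circles, female; squares, male; 12 each, sorted by value within a gene). Pcdh9 is highest and Pcdh18 lowest in both sexes, and a step of over 1 log2 unit separates Pcdh10 from Pcdh17.

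The sequence before the gene start was available for 7 of the 9 genes, as the 250 bases upstream of the RefSeq start in the GRCm38.p6 assembly, the assembly also named mm10. The members' upstream stretches had a median GC content of 63.6% and a median of 18 CpG dinucleotides, against 52.4% and 6 over all 32851 promoters of that table. The letters CCAAT, a promoter element bound by the factor NF-Y, occurred on either strand in 6 of the 7 members and in 33.8% of all promoters. The 7 matches are shown with 10 bases on each side, each read in the direction in which it spells CCAAT, with those letters in capitals, because the surrounding letters can then be compared. The element was searched for after the sequences had been seen.

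Pcdh9: aagatgctggCCAATcaggacccgg
Pcdh8: aaggggccagCCAATggtcgcttag
Pcdh10: attctgccaaCCAATcgccgaggag
Pcdh17, distal: cggcccacgcCCAATgggaggcgga
Pcdh17, proximal: tctctgccagCCAATcggcgtgggg
Pcdh18: tcgcttccagCCAATcagcgagctt
Pcdh19: caggcactagCCAATcagcgcgcag

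In these windows all 5 delta-2 genes carry the element on the strand opposite to the gene, and Pcdh9 carries it on the gene's own strand. Counted back from the start, the match begins at base -82 in Pcdh9, -68 in Pcdh8, -50 in Pcdh10, -101 and -58 in Pcdh17, -32 in Pcdh18 and -65 in Pcdh19. The windows lie at chr14:93890747-93890771 for Pcdh9, chr14:79771366-79771390 for Pcdh8, chr3:45378338-45378362 for Pcdh10, chr14:84443452-84443476 and chr14:84443495-84443519 for Pcdh17, chr3:49757334-49757358 for Pcdh18 and chrX:133689044-133689068 for Pcdh19. Pcdh7, the 7th member with a sequence, has no CCAAT in its 250 bases. Pcdh1 and Pcdh11x had no sequence, so a single match stands for delta-1. The strand of the element was not counted over all promoters, and the subfamilies cannot be compared on it.

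Other elements were also searched for on both strands. They were TGACGTCA (the cAMP response element), TGANTCA (AP-1), CACGTG (an E-box), GCGNGGGCG (EGR factors), TATAAA (the TATA box), the MEF2 site and the CArG box. In the members 2 matches were found. Pcdh8 holds a TATA box from base -30 to -25 (12.4% of all promoters hold one in the 250 bases), and Pcdh17 holds an EGR match from -130 to -122 (4.70% of all promoters). In all promoters the shares of the others were 1.55% for the cAMP response element, 6.75% for AP-1, 6.02% for the E-box, 2.92% for MEF2 and 1.47% for the CArG box. A match of letters is a description and does not show that a factor binds. The stretches of Pcdh9, the gene with the most RNA, and of Pcdh8 and Pcdh17, the genes with further matches, are given 5′ to 3′ on the gene's strand with matches in capitals. For Pcdh7 only the 136 bases before the start in the count table are given.

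Pcdh9, chr14:93890680-93890929, minus strand: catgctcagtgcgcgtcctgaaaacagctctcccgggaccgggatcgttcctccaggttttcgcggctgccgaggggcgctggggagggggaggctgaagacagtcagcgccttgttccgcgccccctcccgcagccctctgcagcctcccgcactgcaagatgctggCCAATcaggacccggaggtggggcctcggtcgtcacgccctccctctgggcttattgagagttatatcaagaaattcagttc
Pcdh8, chr14:79771313-79771562, minus strand: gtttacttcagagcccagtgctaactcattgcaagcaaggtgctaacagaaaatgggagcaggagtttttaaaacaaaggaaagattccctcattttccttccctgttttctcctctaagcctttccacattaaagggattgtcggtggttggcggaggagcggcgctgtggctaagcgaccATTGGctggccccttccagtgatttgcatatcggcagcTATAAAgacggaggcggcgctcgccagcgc
Pcdh17, chr14:84443313-84443562, plus strand: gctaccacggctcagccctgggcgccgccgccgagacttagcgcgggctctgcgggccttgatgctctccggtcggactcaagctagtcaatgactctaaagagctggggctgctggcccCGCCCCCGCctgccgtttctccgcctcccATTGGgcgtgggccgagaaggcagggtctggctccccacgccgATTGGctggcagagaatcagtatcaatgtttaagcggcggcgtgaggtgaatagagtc
Pcdh7, chr5:57717831-57717966, plus strand: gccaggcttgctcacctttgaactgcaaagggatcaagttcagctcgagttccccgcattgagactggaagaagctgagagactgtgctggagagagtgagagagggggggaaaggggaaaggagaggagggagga

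The comparison of housing in females asked which RNAs differ between EE and SH neurons. All 9 members were tested in edgeR's quasi-likelihood test with Benjamini-Hochberg adjustment over 14587 genes, and 0 were called at an adjusted p under 0.05, as were 0% of all genes. At an unadjusted p under 0.05 there was 1 member, which was higher in EE, against 8.67% of all genes and 4.53% that were higher in EE. Of the 9, 4 had a positive log2 fold change (higher in EE), with a median of -0.02 against 0.00 over all genes tested, of which 50.6% were positive. The EE and SH libraries overlapped for every member, and 0.548% of all genes had groups that did not overlap.

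The member below the unadjusted threshold was Pcdh1, an adhesion protein of neurons and epithelia. Its EE libraries were at 90.2, 97.5, 93.7, 90.0, 83.2 and 96.4 CPM and its SH libraries at 82.5, 82.7, 81.1, 90.9, 81.1 and 91.0 CPM. In words, 3 EE libraries lay above the highest SH library and all 6 above the SH median. Mean levels were 91.8 ± 5.21 (EE) and 84.9 ± 4.75 (SH) CPM (SD, n = 6 each), with a log2 fold change of 0.11 ± 0.05 (SE, edgeR adjusted p = 0.552). Pcdh10 leaned the other way, at 117 ± 11.0 CPM with EE against 128 ± 10.0 with SH (-0.12 ± 0.06), with 3 EE libraries below the lowest SH library.

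The long delta-1 genes were close in both female groups. Pcdh11x was at 159, 142, 145, 153, 138 and 137 CPM in EE and 156, 138, 168, 154, 140 and 159 CPM in SH. Its groups overlapped, with 2 EE libraries below the lowest SH library and SH replicate 3 above every EE library (log2 fold change -0.07 ± 0.05, SE). Pcdh7 had 1152 ± 44.7 CPM with EE and 1172 ± 54.4 with SH (-0.02 ± 0.04), and Pcdh9 4612 ± 305 and 4827 ± 350 (-0.07 ± 0.06).

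Of the remaining delta-2 genes in females, Pcdh17 had 68.2 ± 8.19 CPM with EE and 63.4 ± 9.41 with SH (log2 fold change 0.10 ± 0.10), and Pcdh19 had 27.7 ± 1.81 and 27.3 ± 2.80 CPM (0.03 ± 0.07). The activity-regulated Pcdh8 ran from 1.98 to 3.58 CPM in EE and from 1.46 to 3.82 CPM in SH libraries. Its single highest library was SH replicate 2, which also had the highest sum of non-neuronal markers, and the log2 fold change was 0.18 ± 0.23. Pcdh18 was highest in the same library, at 1.95 CPM against 0.310 to 1.06 CPM in the other SH libraries, and its log2 fold change of -0.29 ± 0.35 became 0.05 without that library. Markers of striatal projection neurons, a cell type outside the cortex, had a positive log2 fold change for 8 of 9 genes (median 0.53, 0 called in edgeR, 2 with an unadjusted p under 0.05), whereas their summed level, 1129 to 1913 CPM in EE and 1263 to 1937 in SH, had the lower mean in EE. With the mean of their centred log2 levels as a covariate, which weights the genes equally and was chosen after the data had been seen, Pcdh8 was at -0.07 and Pcdh17 at -0.03, and with the level of GABAergic markers (6 of 8 higher in EE) they were at 0.02 and 0.04. Astrocyte and oligodendrocyte markers were lower in EE for 7 of 8 genes each (medians -0.28 and -0.09), as were all 3 markers of excitatory neurons (-0.17) and 3 of 4 of upper layers (-0.16), whereas 4 of 5 of deep layers were higher (0.07). In edgeR 0 of these were called, and 2 astrocyte, 2 excitatory and 2 upper-layer genes had an unadjusted p under 0.05. The part of these other cells in the values of Pcdh8, Pcdh17 and Pcdh18 was not tested. In bulk libraries such as these, fewer cells of a type and less RNA per cell cannot be told apart. Among immediate early genes, a list of activity-induced transcripts that holds no member, 15 of 15 tested genes had a positive log2 fold change in females (median 0.68) and 5 of 15 in males (median -0.10). The edgeR test called 0 in either, and 10 female and 0 male genes had an unadjusted p under 0.05. Those with the smallest p were Fosb (log2 fold change 1.63 ± 0.40, SE) and Npas4 (1.00 ± 0.24) in females, and Jun (-0.36 ± 0.20) and Egr4 (-0.53 ± 0.36) in males.

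In male RNA, whose values chose the family, the 3 long delta-1 genes had the highest log2 fold changes of the 8 members tested, from 0.15 to 0.33, and the other 5 lay between -0.23 and 0.01. Pcdh18 fell under the low-count filter, and of the 8 members tested 1 was called, Pcdh11x, where 0.0411% of all 14597 genes were called and 0.0343% were called as higher in EE. At an unadjusted p under 0.05 there were 3 members, all higher in EE (8.03% of all genes, and 4.09% that were higher in EE), and 5 of the 8 had a positive log2 fold change (47.9% of all genes). The 3 were the long delta-1 genes, and of all tested genes of 300 kb or more 21.9% passed in either direction. The EE and SH groups overlapped for every member, whereas 0.541% of genes had groups that did not. Calls and counts under a threshold in this contrast describe values that chose the family, and lend no support to a housing effect.

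Pcdh11x was at 172, 149, 166, 161, 145 and 164 CPM in male EE libraries and at 122, 119, 124, 119, 146 and 133 CPM in SH libraries. The 2 groups met only where SH replicate 5 (146 CPM) lay just above EE replicate 5 (145 CPM), and the other 5 EE libraries were above every SH library. The means were 159 ± 10.2 and 127 ± 10.7 CPM (SD, n = 6 each), a 1.25-fold level with a log2 fold change of 0.33 ± 0.05 (SE). Leaving out EE replicate 3, or any of SH replicates 1, 2, 3 and 4, ended the call, and the log2 fold change stayed between 0.31 and 0.32. It was also lost with the striatal marker level of each library as a covariate (0.33), a setting added after the data had been seen.

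Pcdh7 had 1301, 1138, 1274, 1165, 1151 and 1206 CPM in male EE and 1082, 1025, 999, 984, 1210 and 1002 CPM in SH libraries. Apart from SH replicate 5, every SH library lay below every EE library. The log2 fold change was 0.20 ± 0.05 (1206 ± 67.7 against 1050 ± 85.3 CPM), which was not called. Without SH replicate 5, the library that overlapped EE, it was 0.25 and called, where 8 of all 14694 genes were called. That call describes values that chose the family. Pcdh9 had 4246, 3980, 4216, 4501, 4166 and 3882 CPM in EE and 4065, 3633, 3698, 3394, 4112 and 3587 CPM in SH, again with replicate 5 highest in SH. With a log2 fold change of 0.15 ± 0.05 (4165 ± 217 against 3748 ± 283 CPM) Pcdh9 was not called.

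Of the other 5 members tested in males, 3 had a negative log2 fold change and Pcdh17 and Pcdh19 a positive one close to 0. Pcdh8 had 3.64 ± 0.286 CPM with EE and 4.27 ± 0.530 with SH, and all 6 EE libraries lay below the SH median (log2 fold change -0.23 ± 0.13). Pcdh1 had 87.8 ± 7.59 and 92.4 ± 8.55 CPM (-0.07 ± 0.06). Pcdh10, Pcdh17 and Pcdh19 were within 0.02 of 0 on the log2 scale (-0.01 ± 0.06, 0.01 ± 0.07 and 0.01 ± 0.06). Pcdh18 had 0.585 ± 0.325 CPM in EE and 0.743 ± 0.300 in SH.

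**Figure D2:**
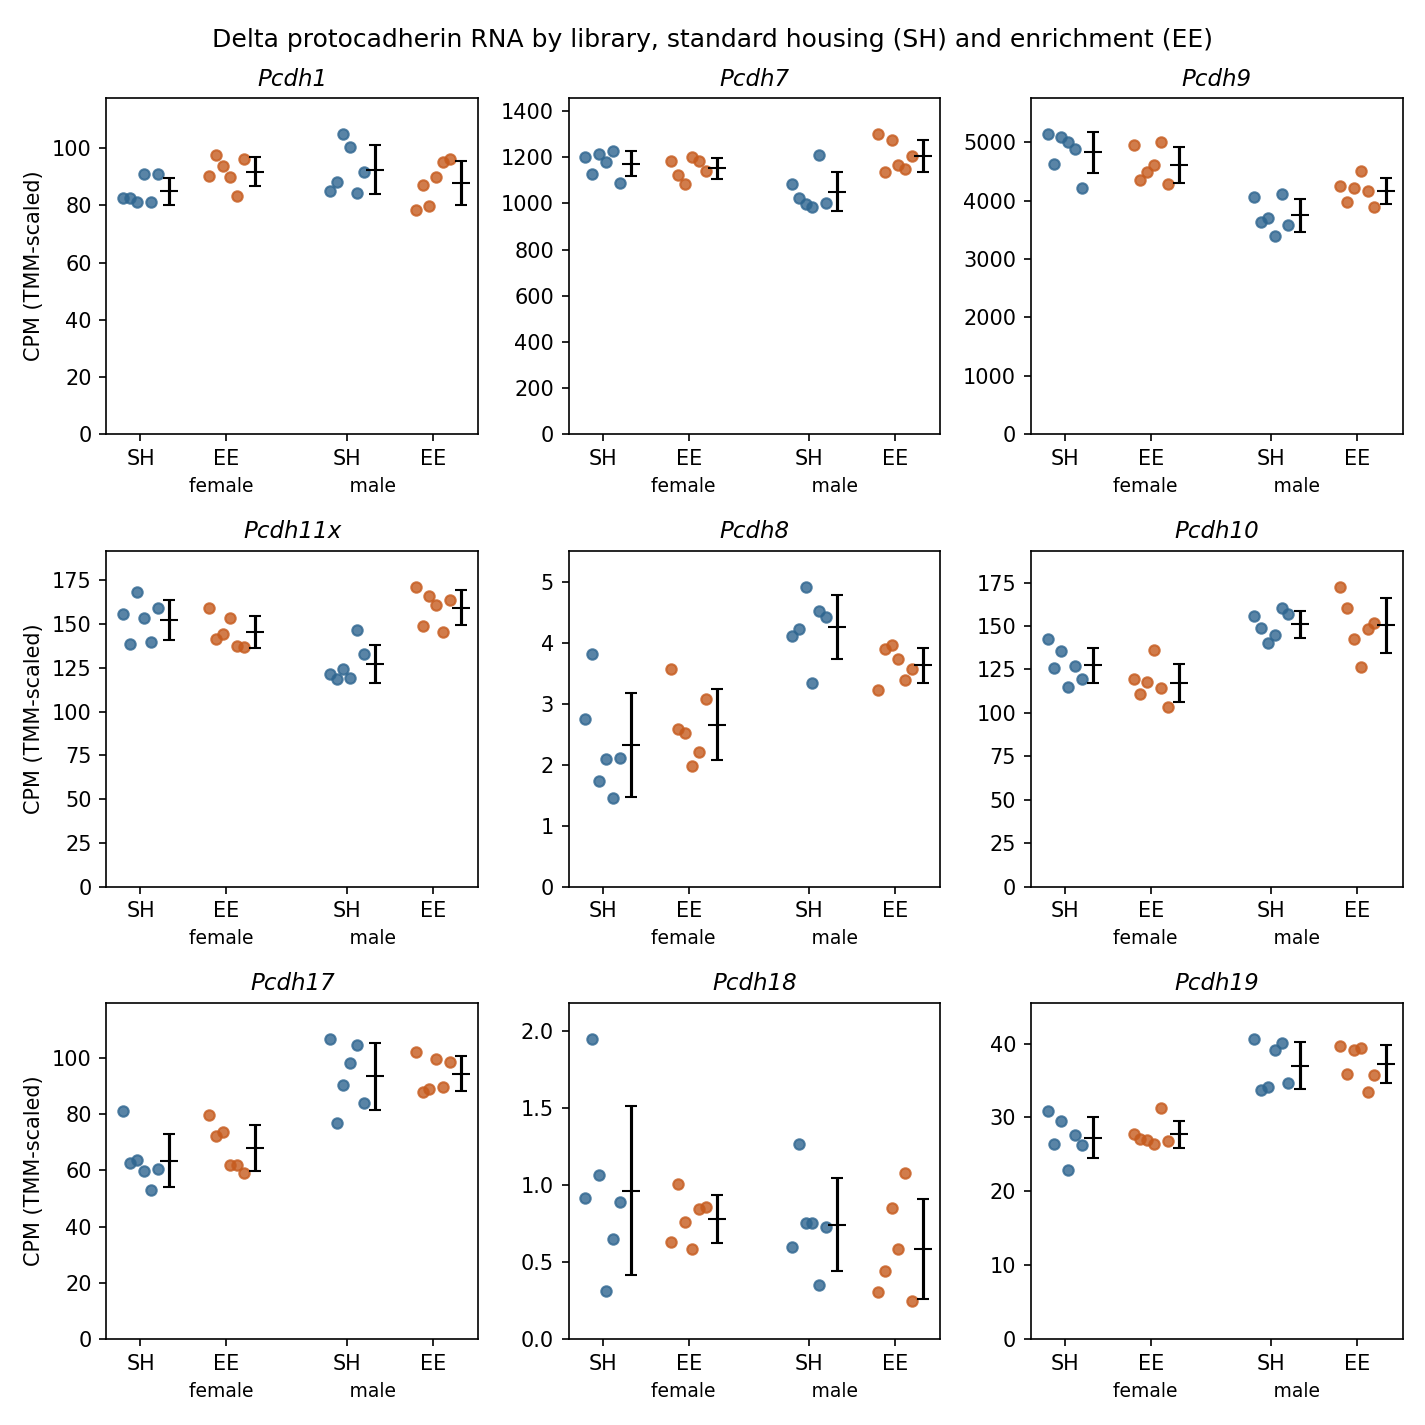
CPM of each gene (vertical axis from 0, a scale of its own per panel) in every RNA library, by sex and housing (blue, SH; orange, EE; 6 libraries per group), with the group mean and SD in black. In males, Pcdh11x and Pcdh7 lie higher in EE apart from 1 high SH library, 4 of 6 EE libraries lie above all SH libraries for Pcdh9, and the female groups overlap for every gene.

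Markers of other cells were also compared in males. All 8 tested astrocyte markers and all 8 tested oligodendrocyte markers had a positive log2 fold change (medians 0.25 and 0.34, 0 called in edgeR, 1 and 2 with an unadjusted p under 0.05), and both tested genes of oligodendrocyte precursors had a negative one. Deep-layer markers were lower in EE for all 5 genes (median -0.05) and upper-layer markers higher for 3 of 4 (0.07), with 0 called in edgeR and 0 at an unadjusted p under 0.05. The summed levels were 708 to 859 CPM in EE against 658 to 749 in SH for astrocytes, and 99.8 to 245 against 113 to 149 for oligodendrocytes. The part of these cells in the members' values was not tested, and the covariate fits that follow are descriptions. With the glial marker level of each library as a covariate, the male log2 fold changes were 0.32 for Pcdh11x, 0.20 for Pcdh7 and 0.15 for Pcdh9. Pcdh11x was called in that fit too, in the same libraries whose values chose the family. The GABAergic interneuron markers summed to 582 to 692 CPM in EE and 548 to 633 in SH, and with their level as a covariate, chosen after the data were seen, the values were 0.33, 0.21 and 0.15.

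**Figure D3:**
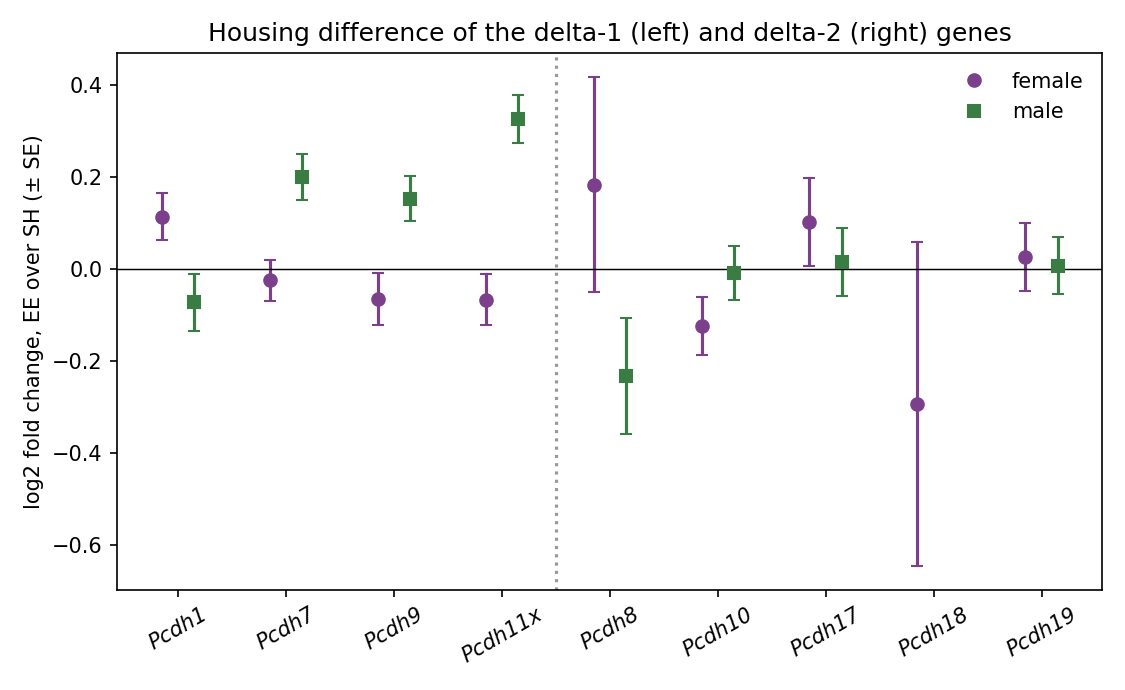
Log2 fold change of EE over SH with its SE for each gene in female (circles) and male (squares) RNA, 6 libraries per group, with delta-1 genes left and delta-2 genes right of the dotted line. The male values of Pcdh7, Pcdh9 and Pcdh11x are 0.20, 0.15 and 0.33, and the female values of the same genes are between -0.07 and -0.02. Pcdh18 was not tested in males.

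Set side by side in 1 fit of all 24 RNA libraries, the housing difference of females minus that of males was -0.39 ± 0.08 (log2, SE) for Pcdh11x, -0.23 ± 0.07 for Pcdh7, -0.22 ± 0.08 for Pcdh9 and 0.19 ± 0.08 for Pcdh1. It was 0.41 ± 0.25 for Pcdh8, -0.12 ± 0.09 for Pcdh10, 0.09 ± 0.13 for Pcdh17, 0.03 ± 0.51 for Pcdh18 and 0.02 ± 0.10 for Pcdh19. Of the 9 members 0 were called, and 1 of the 15562 genes tested was. The male values that chose the family enter these differences, so they are a description. With female EE replicate 1 left out Pcdh11x was called (-0.43), as it was with female SH replicate 2 (-0.43) or male SH replicate 5 (-0.44) left out. In those runs 10 of 15782, 39 of 15727 and 5 of 15753 genes were called, and these calls too are a description.

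The 3 genes that were higher in male EE are also the longest of the family, and housing differences followed gene span across all genes. In males the median log2 fold change rose from -0.05 for genes under 10 kb (2967 genes) to 0.04 for genes of 300 kb or more (597 genes), of which 67.3% were higher in EE. In females it went from 0.05 (2996 genes) to -0.03 (598 genes), of which 39.8% were higher. An unadjusted edgeR p under 0.05 was also more frequent in long genes. It was found for 6.13% of male genes under 10 kb and 21.9% of those of 300 kb or more. The female shares were 6.61% and 18.1%. Relative to the median of genes of like span, the male log2 fold change was 0.29 for Pcdh11x, 0.16 for Pcdh7 and 0.11 for Pcdh9, and the female values were -0.04, 0.00 and -0.04. The shortest member, Pcdh8, was at -0.19 in males and 0.13 in females on that scale. The part of gene span in the members' values was not tested further.

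**Figure D4:**
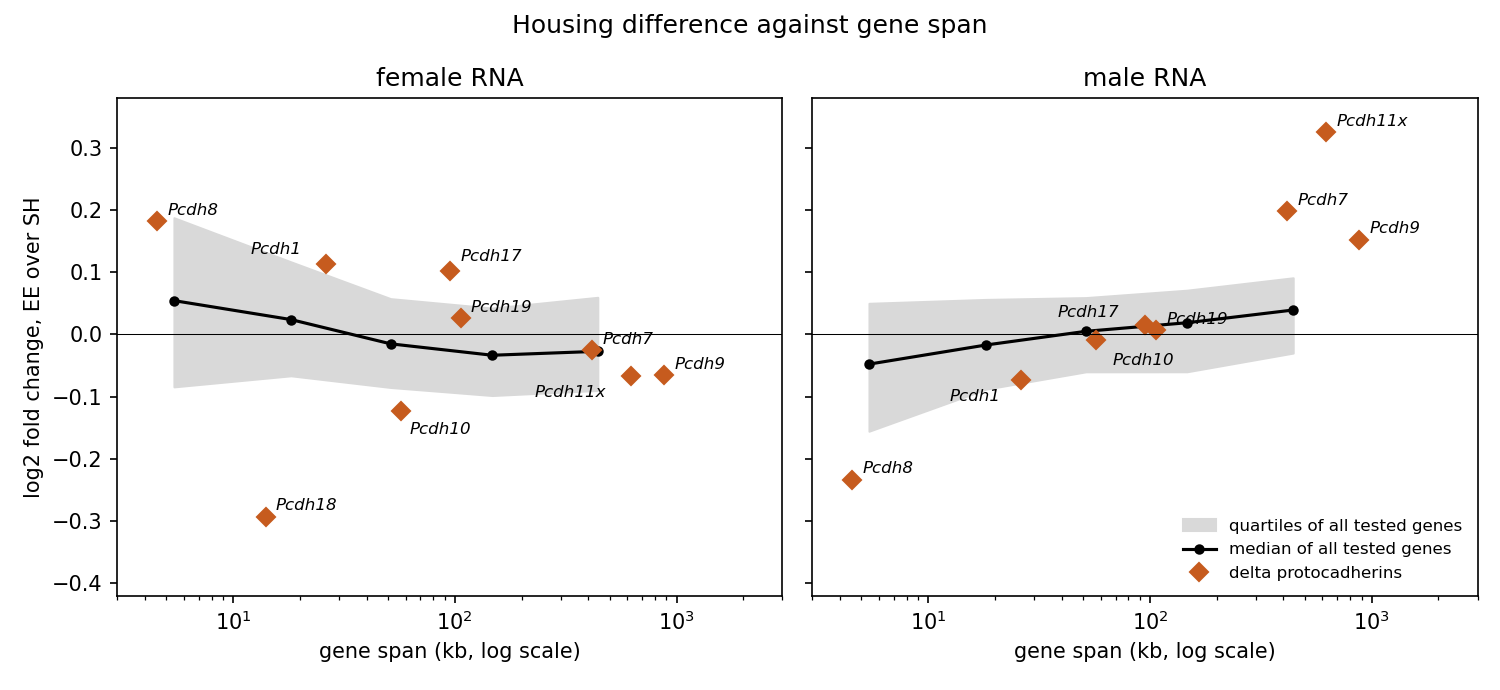
Log2 fold change of EE over SH against gene span (kb, log axis) in female and male RNA. The black line and grey band are the median and quartiles of all tested genes in 5 span classes, drawn at the median span of each class, and diamonds are the delta protocadherins. Pcdh11x, Pcdh7 and Pcdh9 lie above the band in males and near its middle or lower part in females.

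Relatives and partners of the family were counted for comparison. Of the other cadherin superfamily genes (classical cadherins, Fat, Dachsous and Celsr genes and solitary protocadherins), 25 were tested in females and 11 were higher in EE (median log2 fold change -0.04), and in males 17 of 26 were higher (median 0.03). None of the 25 or 26 was called in edgeR, and 2 and 4 had an unadjusted p under 0.05. The lowest p values in this list were those of Dchs2, a giant cadherin (log2 fold change 0.55 ± 0.20, SE), and Fat1 (0.13 ± 0.06) in females, and of Fat3 (0.14 ± 0.04) and Cdh20 (0.21 ± 0.07) in males. Among cytoplasmic partners, which comprise the WAVE complex, Ena/VASP proteins, protein phosphatase 1 subunits, catenins and the p38 pathway used by Pcdh8, 11 of 24 were higher in females and 13 of 24 in males (medians -0.01 and 0.01). Again 0 were called in edgeR, with 4 and 2 at an unadjusted p under 0.05. Mapk14, the p38 kinase of the Pcdh8 pathway, was at -0.12 ± 0.04 in females and 0.10 ± 0.04 in males. Cyfip2, a WAVE subunit, was at -0.11 ± 0.04 in females and Wasf1, the neuronal WAVE protein, at 0.08 ± 0.04 in males.

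The genes whose level followed Pcdh11x most closely were sought among 10870 genes tested in both tables, by the mean of the Pearson correlations of log2 CPM over the 12 female and the 12 male libraries. They were Neto2, an auxiliary subunit of kainate receptors (r = 0.74 in females and 0.80 in males), Cdh8, a classical cadherin (0.79 and 0.76), Frmd3, a FERM-domain protein (0.80 and 0.73), Grm7, a presynaptic metabotropic glutamate receptor (0.76 and 0.77), and Sbf2, a myotubularin-related protein (0.81 and 0.71). These are descriptions over 12 libraries each that share depth and the housing difference. All 5 had a negative female and a positive male log2 fold change, as Pcdh11x did, from -0.18 to -0.03 in females and from 0.07 to 0.19 in males. The correlations ran across both housing groups, so a shared direction is in part built into the choice of these genes. By the same measure Pcdh7 correlated with Pcdh11x at 0.91 in males and 0.25 in females.

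Within housing groups, members were compared with each other over the 12 libraries of a table, each value taken as its deviation from the group mean. Over 56 relations (8 genes, 2 tables, Pcdh18 left out for its low counts), 0 passed after adjustment. The closest were Pcdh7 with Pcdh9 in females (r = 0.78, permutation p = 0.00544; rho = 0.64, permutation p = 0.0369; adjusted p = 0.111 for r), which was 0.63 in males, and Pcdh17 with Pcdh19 in males (r = 0.78, permutation p = 0.00776; rho = 0.81, permutation p = 0.00635; adjusted p = 0.111 for r). Without the 2 libraries farthest from the median of the gene named first in a pair, r was 0.68 for Pcdh7 with Pcdh9 and 0.69 for Pcdh17 with Pcdh19. Pcdh7 with Pcdh11x in males (r = 0.79, permutation p = 0.00771; rho = 0.70, permutation p = 0.0199; adjusted p = 0.111 for r) dropped to 0.44 without the 2 libraries farthest from the Pcdh7 median. Leaving them out also narrows the range of Pcdh7, which can itself lower r. Pcdh1 ran opposite to Pcdh7 in both tables (r = -0.63 in females and -0.73 in males), with adjusted permutation p of 0.283 and 0.111.

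Reads of overlapping genes could enter these counts if counting ignored strand, a setting the sources used here do not state. The overlapping gene with the most counts was 4932441J04Rik, on the opposite strand within Pcdh7, with a mean of 199 counts per female library, against 12581 to 18148 for Pcdh7. The antisense gene 2010320O07Rik in Pcdh1 had a mean of 48.9 counts, against 840 to 1467 for Pcdh1, and Gm26851 in Pcdh19 had 22.1 in males, against 392 to 565. No gene overlapping Pcdh11x had a count in any library.

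Open chromatin at the members, a measure the choice of genes did not use, was compared between EE and SH in each sex. In females 0 of the 211 member regions were called, where 0.0473% of all 164926 tested regions were and 0.0346% were called as higher in EE, and in males 0 of 321 were called, where 0% of 192834 were. At an unadjusted p under 0.05 there were 14 of the 211 (6.64%, against 8.01% of all regions) and 14 of the 321 (4.36%, against 4.54%). Of these, 10 female and 11 male regions were higher in EE, where 4.53% and 2.62% of all regions passed in that direction. Groups did not overlap for 25 of the 211 (12.8% of all regions) and 1 of the 321 (0.123% of all regions). The female groups hold 3 libraries each, which limits what can be called.

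The regions of several genes in females lay mostly on the same side of 0. Of the 55 female regions in Pcdh7, 40 were higher in EE (median log2 fold change 0.15), as were 55 of the 83 in Pcdh9 (0.09), 17 of the 25 in Pcdh10 (0.15) and 7 of the 9 in Pcdh11x (0.24). In Pcdh1 16 of 19 were lower, with a median of -0.25. Of the 11 in Pcdh17, 4 were higher (-0.01), and Pcdh8, Pcdh18 and Pcdh19 had 2 to 4 regions each. Over all female regions 48.3% were higher, with a median of -0.01. The summed signal of the Pcdh1 regions was 147 ± 11.1 CPM with EE and 164 ± 9.57 with SH (SD, n = 3 each, over 19.2 kb), and the lowest SH value (153) was below the highest EE value (158). For Pcdh11x the sums were 46.9 ± 3.45 and 41.1 ± 0.750 CPM over 5.56 kb, with every EE library (44.3 to 50.8) above every SH library (40.2 to 41.6). Regions of a gene share their libraries and are not independent, and 3 against 3 libraries cannot go below p = 0.1 in an exact two-sided permutation test.

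In males Pcdh7 had 66 of 102 regions higher in EE (median 0.04) and Pcdh9 78 of 134 (0.03), whereas Pcdh11x had 11 of 16 lower (-0.03), Pcdh10 15 of 22 lower (-0.05) and Pcdh1 6 of 8 lower (-0.04), beside 49.7% higher and a median of 0.00 over all regions. For Pcdh11x, whose male RNA values chose the family, the summed signal was 56.9 ± 4.26 CPM with EE and 60.8 ± 5.99 with SH (SD, n = 6 and 7, over 14.3 kb), and the groups overlapped.

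**Figure D5:**
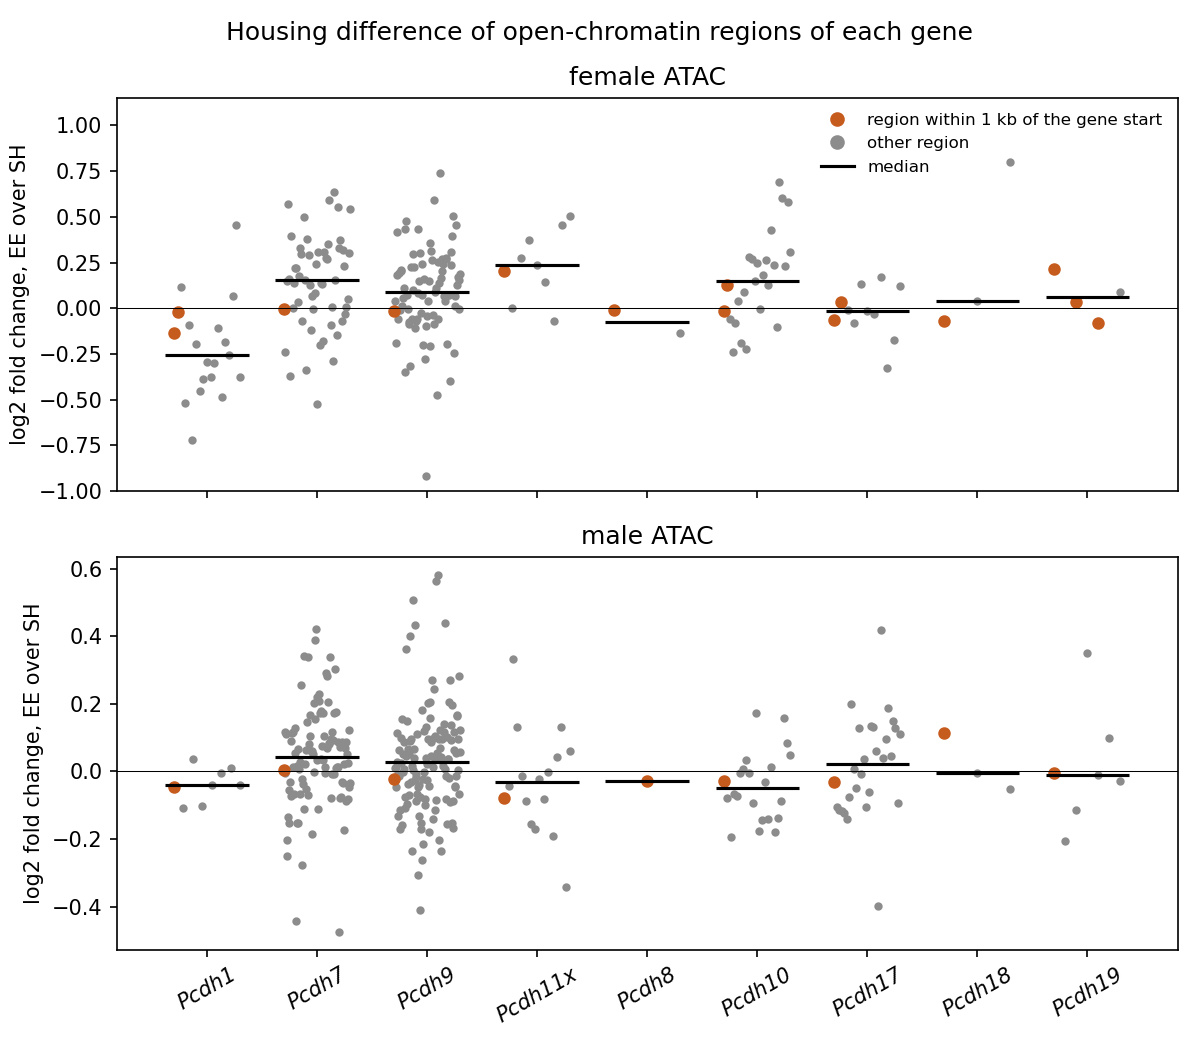
Log2 fold change of EE over SH for each open-chromatin region of the 9 genes in female ATAC (3 libraries per group) and male ATAC (6 EE and 7 SH libraries). Within a gene, points run from upstream to downstream of the start; orange points overlap the 1 kb on either side of the start, and black lines are medians. Most female regions of Pcdh1 lie below 0, and the regions that overlap the start windows lie between -0.14 and 0.21 in females and between -0.08 and 0.12 in males.

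At the gene starts the largest region of each gene differed little with housing. In males these 9 regions had log2 fold changes from -0.08 ± 0.07 (SE; Pcdh11x, 23.8 ± 2.19 CPM in EE and 25.2 ± 2.03 in SH, SD) to 0.12 ± 0.08 (Pcdh18). At the Pcdh11x start the EE libraries were at 22.5, 23.6, 23.2, 28.1, 22.0 and 23.5 CPM, and the SH libraries ran from 22.4 over a median of 24.7 to 28.8 CPM. Only the lowest EE library lay outside the SH range. In females 8 of the 9 lay between -0.07 and 0.04, and the Pcdh11x start was at 9.70, 12.5 and 11.5 CPM in EE and 9.25, 9.91 and 10.1 CPM in SH (0.21 ± 0.15). The Pcdh7 start had the highest CPM of the family in both tables, with log2 fold changes of 0.00 ± 0.09 in females and 0.00 ± 0.06 in males. It held 128 CPM in each sex, over a region of 8865 bases in females and 11866 in males. Per kb the Pcdh10 start was higher in females (25.7 against 14.4 CPM per kb).

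The member regions with the smallest p lay far from gene starts, all in Pcdh9 and Pcdh7. Coordinates follow the count tables, whose first base number is not given. In females a region at chr14:93553331-93553674, 337176 bases into Pcdh9, had 1.18, 2.05 and 0.716 CPM in EE and 3.29, 1.61 and 2.49 in SH, with overlapping groups (log2 fold change -0.92 ± 0.31, edgeR adjusted p = 0.341). A region at chr14:93351006-93351267, further into Pcdh9, went the other way, with 3.54, 2.36 and 3.54 CPM in EE and 2.08, 1.67 and 1.88 in SH (0.74 ± 0.26, adjusted p = 0.360 in edgeR). The region at chr5:58117890-58118486, near the end of Pcdh7, was at 4.97 ± 0.642 against 3.42 ± 0.179 CPM (SD; 0.54 ± 0.21, adjusted p = 0.437 in edgeR). In males a region at chr5:57943060-57944353 in Pcdh7 had EE libraries at 3.24 to 4.10 CPM and SH libraries at 2.64 to 3.16 CPM (0.29 ± 0.10), with no overlap. The other 2, both in Pcdh9, were chr14:93382764-93383133 (log2 fold change 0.56 ± 0.19) and chr14:93645495-93646062 (0.43 ± 0.15), with overlapping groups. All 3 male regions had an edgeR adjusted p of 1.

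Members also differed in the number of regions per length and in the signal at the start. Females had from 1.45 regions per 100 kb in Pcdh11x to 72.7 in Pcdh1, and males from 2.58 in Pcdh11x to 38.4 in Pcdh10. A count of regions is not an amount of open chromatin, because regions differ in width. In males 8 regions covered 25.7 kb for Pcdh1, which spans 26.1 kb. For Pcdh10, which spans 57.2 kb, 22 male regions covered 48.1 kb. Of the female member regions 97.6% overlapped a male one, and 42.7% of the male regions overlapped a female one, in tables with regions of median width 445 and 821 bases. Signal per kb in the region at the start was highest at Pcdh10 and Pcdh17 in females (25.7 and 24.3 CPM per kb) and at Pcdh7 and Pcdh17 in males (10.8 and 10.4), and lowest at Pcdh11x in females (6.69) and at Pcdh1 and Pcdh11x in males (4.89 and 4.91). Across the 9 genes this signal ranked with the RNA level per kb with a Spearman rho of 0.43 in females and 0.32 in males, a description over genes that are not independent replicates and whose regions differ in width.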

How the data were processed

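Nuclear RNA and ATAC-seq libraries were taken as 4 deposited tables, 1 per sex and assay, and grouped by the labels. Per the labels, RNA reads of introns and exons were both counted; the deposited values are raw counts per Ensembl gene and, for ATAC, per region. Per the submitters' processing notes, STAR 2.5.4, SAMtools 1.3.1, bedtools, MACS2 2.1.1, DESeq2 1.16.1, DiffBind 3.2.2 and edgeR served the authors' work on mm10; the sources used here do not state the counter, read filters or strand setting. Gene spans (base pairs, another deposited column of the female RNA table by the authors) gave CPM per kb. The male RNA header is 1 name short of its rows, so its names were taken to begin at the first column after the gene ID. Of 53379 gene IDs, 53274 had a symbol.

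Tables were fitted one at a time with edgeR 4.0.16 (R 4.3.3; TMM scaling, the default low-count filter, robust quasi-likelihood F test of housing, Benjamini-Hochberg adjustment over the whole table, called under 0.05). CPM use TMM-scaled library sizes; SE is the log2 fold change divided by the square root of F. Fits were tested on simulated data. limma 3.58.1 (voom) and DESeq2 1.42.0 were alternatives. Members and gene lists were chosen with earlier results of these data known. Named are the 9 members, per member and table the region with most counts at the start, the 3 member regions with the smallest p (0 were called), the 5 genes most like Pcdh11x with an average log2 CPM of at least 1, and the 2 genes of each list with the smallest p per table. Replicate numbers were not taken as pairs. Counts limit precision by counting error only.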

Additional observations from a re-analysis of the deposited data

Results flagged for a closer look

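Single libraries stood apart from the rest of their group in 3 of the 60 groups of member values examined; chance alone flags about 1 in 20 groups. Pcdh19 in female RNA had 31.3 CPM in EE replicate 5, against 26.4 to 27.8 in the other EE libraries. In male ATAC, EE replicate 4 was the highest EE library at the starts of Pcdh11x (28.1 CPM, against 22.0 to 23.6 in the others) and of Pcdh7 (151 CPM, against 117 to 129).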

How the results depend on the processing

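In female RNA, female ATAC and male ATAC, 0 members or member regions were called under each alternative run. In male RNA, 1 member was called with total count scaling, limma, or a glial or GABAergic covariate, 3 without the low-count filter (Pcdh7, Pcdh9, Pcdh11x), 2 with DESeq2 (Pcdh7, Pcdh11x), and 0 with a striatal covariate; leaving out 1 library gave 0 to 2. The cause was not tested. Whether equal replicate numbers mark pairs is not given by the labels, and correlations between libraries cannot decide it. Same-numbered libraries correlated at 0.04 to 0.31 in female RNA and -0.03 to 0.23 in male RNA. The range was -0.07 to 0.07 in female ATAC and -0.10 to 0.17 in male ATAC. In that order, 3 of 6, 2 of 6, 1 of 3 and 2 of 6 were closest to their own number. Same-numbered female RNA libraries also share the number in their column header. In male RNA only those of replicate 6 do, so the male block does not follow the header numbers. With the replicate block, 0 members were called in male RNA and 1 in the difference between the sexes (Pcdh11x), and all genes called went from 0 to 95 in females and from 6 to 3 in males. In the difference between the sexes, leaving out 1 library gave 0 to 1 members called, and in the order of levels 14 to 15 of 16 tests held. Over all features, called counts were 1, 168, 39, 2, 2 and 121 in female RNA with total scaling, no filter, the glial, GABAergic and striatal covariates and DESeq2, and 136, 10, 1 and 49 in male RNA with no filter, the glial and striatal covariates and DESeq2, which gave no adjusted p for 71.7% of the male genes. Leaving out 1 library gave 0 to 85 called genes in female RNA (most without SH replicate 2), 0 to 11 in male RNA, 22 to 333 regions in female ATAC and 0 to 3 in male ATAC. DESeq2 called 122 female and 7 male regions, and the block 34 and 1. The long genes kept their male direction under all 20 alternatives (Pcdh11x 0.29 to 0.37, Pcdh7 0.17 to 0.25, Pcdh9 0.12 to 0.18), whereas Pcdh8 and Pcdh17 in females turned negative with the striatal covariate (-0.07 and -0.03), Pcdh18 turned positive without SH replicate 2, and Pcdh19 turned negative without EE replicate 5 or SH replicate 4. Male Pcdh10, Pcdh17 and Pcdh19, all near 0, changed sign under 8, 6 and 8 of the 20. Levels per kb of exon were not run, since exon lengths were not used here. Pcdh18, with 3 to 25 counts per library, is limited by depth.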
